A study of Mus musculus with 12 samples.

Results

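The NRF2 antioxidant genes are 10 genes chosen by symbol: the transcription factor gene Nfe2l2, its inhibitor Keap1, and 8 genes of glutathione, thioredoxin and quinone metabolism (Nqo1, Gclc, Gclm, Gsr, Srxn1, Txn1, Txnrd1 and Prdx1). They were chosen by name and not by their values. Of the 10 genes, 9 had at least 1 probe named in the annotation and all 9 passed the detection filter, among 9609 genes tested in all. They were read by 18 of the 45281 probes on the array, of which 17 were tested. The remaining probe, a Txn1 probe, was detected on 0 arrays. Gsr, the glutathione reductase gene, was not analysed here because no probe carried its name.

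RNA came from TRAMP-C cells, a cell line from the prostate tumour of a male TRAMP mouse of the C57BL6 strain, which carries a viral oncogene driven by a prostate promoter, and the labels call the line wild-type. Cells were nucleofected with FoxA2 and HIF-1a plasmids together, with FoxA2 alone, with HIF-1a alone, or with pcDNA, the empty vector that serves as control. They were kept from 48 h after transfection for 12 h in 1% oxygen (hypoxia) or in normoxia, and RNA was hybridised to Illumina Mouse-6 BeadChips. Each of the 4 transfections had 2 hypoxia arrays and 1 normoxia array, 12 arrays in all. All groups share the TRAMP-C background and the nucleofection, and no selection of the transfected cells is stated. The labels mention transfection in duplicate but no separate cultures, so p-values here cover the spread between arrays, which may be technical.

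NRF2, the product of Nfe2l2, is a transcription factor that KEAP1 holds in the cytoplasm and delivers to the proteasome. Oxidants and electrophiles modify KEAP1, and NRF2 then enters the nucleus, pairs with a small MAF protein and binds antioxidant response elements beside genes of glutathione synthesis, thioredoxin recycling, quinone reduction and NADPH supply. The control of NRF2 is mainly on the protein, so its activity is commonly read from its target transcripts, and hypoxia alters the production of reactive oxygen by mitochondria and NADPH oxidases.

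The binding motif could be looked for in RefSeq promoter windows of mouse build GRCm38.p6, each reaching 250 bases before to 50 bases after a gene's start. The core of the antioxidant response element, TGACNNNGC, was searched on both strands. It was present in 5 of the 10 windows held for 8 of the NRF2 genes (50%), against 12.4% of all 32851 windows. The windows of Gclm, Txnrd1 and Prdx1 are shown because the first 2 genes had every hypoxia array below every normoxia array while Prdx1, with the same motif, hardly moved. The core match is in capitals and lies on the opposite strand in all 3 windows, so that its reverse complement is seen. The windows are chr3:122245307-122245606 for Gclm, chr10:82858956-82859255 for 1 of the 3 starts of Txnrd1 and chr4:116685349-116685648 for Prdx1, all on the + strand:
Gclm: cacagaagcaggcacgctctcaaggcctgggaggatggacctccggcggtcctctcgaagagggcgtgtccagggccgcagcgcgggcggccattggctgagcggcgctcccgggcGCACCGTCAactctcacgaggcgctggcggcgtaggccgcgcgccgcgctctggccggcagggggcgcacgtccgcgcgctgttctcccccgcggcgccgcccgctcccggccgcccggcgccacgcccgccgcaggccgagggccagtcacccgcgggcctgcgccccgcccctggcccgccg
Txnrd1: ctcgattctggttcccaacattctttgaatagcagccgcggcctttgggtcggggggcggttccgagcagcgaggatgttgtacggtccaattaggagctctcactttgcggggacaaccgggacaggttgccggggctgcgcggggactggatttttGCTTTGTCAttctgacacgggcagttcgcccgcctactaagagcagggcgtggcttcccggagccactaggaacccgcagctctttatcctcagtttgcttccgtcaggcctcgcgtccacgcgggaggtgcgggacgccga
Prdx1: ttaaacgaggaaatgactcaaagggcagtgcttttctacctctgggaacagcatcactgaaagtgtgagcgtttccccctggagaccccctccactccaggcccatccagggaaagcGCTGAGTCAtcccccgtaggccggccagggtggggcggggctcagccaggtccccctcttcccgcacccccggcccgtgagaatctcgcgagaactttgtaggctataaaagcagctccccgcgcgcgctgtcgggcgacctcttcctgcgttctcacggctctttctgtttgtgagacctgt
The match began 134 bases before the start in Gclm, 92 bases before it in Txnrd1 and 133 bases before it in Prdx1. Nfe2l2 and Srxn1 also held the core, beginning 240 bases before and 28 bases after the start. The windows of Keap1, Nqo1 and Txn1 held no match, which says only that these letters are not in those windows. In Prdx1 the match overlapped TGAGTCA, the element of AP-1 factors, which was in 5.2% of all windows and in 2 of the 10 windows of the NRF2 genes. The core of the HIF element, searched as ACGTG and GCGTG, is short and common: ACGTG was in 2 of the 10 windows of the NRF2 genes (20%), against 19.6% of all windows, and GCGTG in 7 of the 10 (70%), against 32.4%. The windows of Gclm and Keap1 held both. The 7 windows with GCGTG belong to 5 of the 8 genes, since all 3 windows of Txnrd1 held it. A match is a description and not evidence of binding.

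Mean probe intensity ran between 298.5 and 558.5 per array, and between 15322 and 17182 probes were detected at a detection p-value under 0.01. The plasmids were visible in their own transcripts: Foxa2 had a log2 intensity of 9.27 to 10.98 on the 4 hypoxia arrays given its plasmid, against 6.14 to 6.46 on the others, and Hif1a had 11.98 to 13.18 on the arrays of both oxygen levels given its plasmid, against 9.06 to 9.64 on the others. The hypoxia exposure was visible in 10 of 10 HIF targets listed as a check, which all rose, with a median log2 difference of 2.56, among them Ankrd37 (4.71), Adm (4.20) and Egln3 (3.10). Cell type markers moved with oxygen as well. Of 9 epithelial and luminal markers 4 were measured: Krt19, a keratin, was detected on 8 hypoxia arrays and 0 normoxia arrays and was at least 9.63-fold higher in hypoxia (adjusted p = 4.74e-09 by limma), Klf5 rose by 0.70, and Krt8 and Cdh1 did not pass, while Krt18 was detected on 0 arrays. Of 7 neuroendocrine markers 2 were measured, and both rose, Eno2 by 0.95 and Ncam1 by 0.52. Other Ncam1 probes gave 0.28, which did not pass, and 0.68, which did. All 6 mesenchymal markers were measured, of which Vim and Pdgfrb rose by 0.60 and 0.82 (calls that the slide block did not keep, with adjusted p of 0.0538 and 0.0855), and Fn1, Col1a1, Col1a2 and Acta2 did not pass. The basal keratin Krt14 did not pass and Krt5 was detected on 0 arrays, as were all 4 endothelial markers with a named probe. The only immune marker measured, Csf1r, was detected on 5 hypoxia arrays and 0 normoxia arrays. The log2 summed level of the measured luminal markers ran between 10.28 and 10.91 in hypoxia and between 9.52 and 9.69 in normoxia. Klf5, the brightest of them, weighs most in that sum, with means of 10.06 in hypoxia and 9.36 in normoxia. Krt8 differed by -0.27 and Cdh1 by 0.31, so the sum does not stand for every luminal marker. The summed mesenchymal markers ran between 14.78 and 15.66 in hypoxia and between 14.83 and 14.92 in normoxia. The part of these markers in the results on the NRF2 genes was not tested. One array stood apart at the low end, replicate 1 of hypoxia with HIF-1a. On it 35 genes lay over 2 log2 units below every other array, against 0 to 7 genes on each of the other 11 arrays. Txnrd1 is 1 of these genes, so results that rest on this array are given with and without it. Replicate 1 of hypoxia with both plasmids had 10 genes over 2 log2 units above every other array, against 0 on the others. It also had the highest mean intensity, 558.5, and the most detected probes, 17182.

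The HIF targets, listed as a check of the exposure, all rose in 1% oxygen. Few of the NRF2 genes passed the test in the reported fit. Of the 9 genes, 0 rose, 1 fell (Gclm) and 8 did not pass limma's test with Benjamini-Hochberg adjustment over all genes. The call rate over all 9609 genes was 30.4%, with 14.4% higher and 15.9% lower, so the share of NRF2 genes called is under the background in this fit. That order turns on 1 array: without HIF-1a hypoxia replicate 1, 4 of the 9 genes passed, a share above the 33.9% of all genes that passed there. The median log2 difference of the 9 genes was -0.13, against -0.02 over all genes, and their median absolute difference was 0.25, against 0.243 over all genes. Of the 9 estimates, 6 were negative. In RNA from whole cultures, fewer cells of a kind and less RNA per cell cannot be told apart.

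In 3 genes, Gclm, Nqo1 and Txnrd1, the hypoxia arrays were all 8 below the normoxia array of their own transfection. That pattern was found for 18.1% of all genes, and 0 of the 9 genes had all 8 arrays above, against 15.6% of all genes. For Gclm and Txnrd1 the hypoxia and normoxia arrays did not overlap at all, a pattern of 13.2% of all genes in that direction, and for 0 of the 9 genes were all hypoxia arrays above all normoxia arrays, against 11.3% of all genes.

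**Figure D1:**
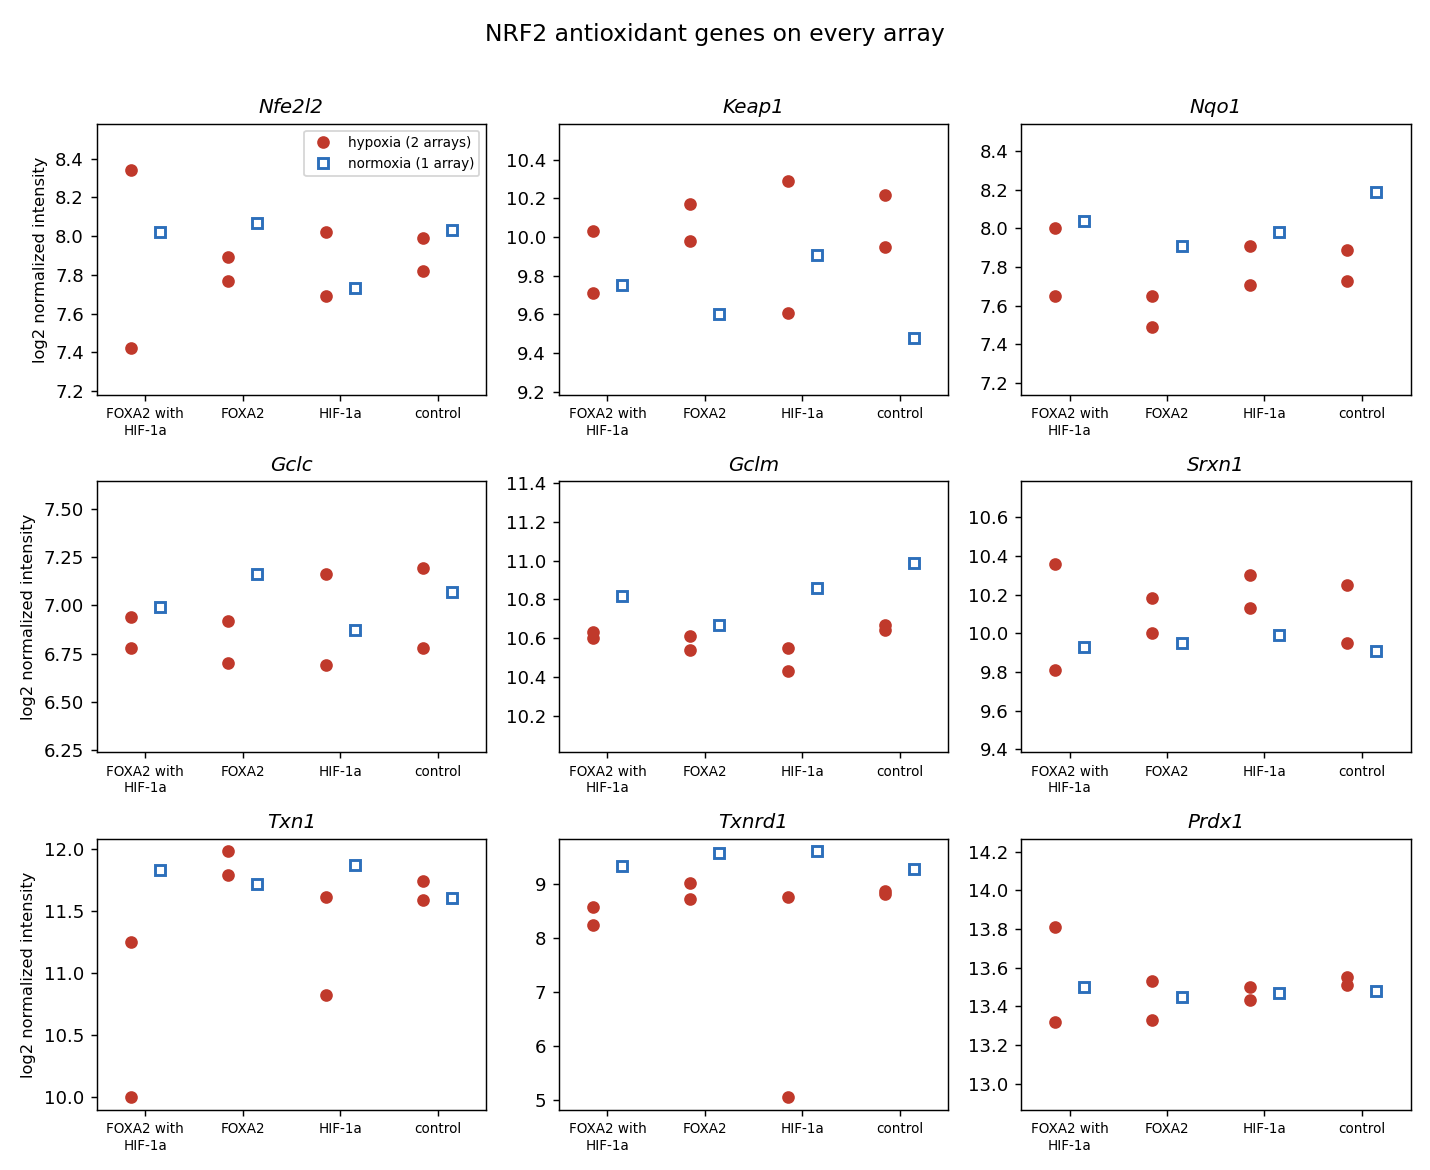
Log2 normalized intensity (vertical axis, a separate scale for each gene) of the 9 NRF2 genes on each of the 12 arrays, grouped by transfection, with filled circles for the 2 hypoxia arrays and open squares for the 1 normoxia array. In Gclm, Nqo1 and Txnrd1 every circle lies below the square of its own transfection, and in Txnrd1 1 circle lies at 5.04, far under the rest.

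Nfe2l2, which encodes NRF2 itself, did not change detectably in its transcript. Its log2 intensity in hypoxia was 8.34 and 7.42 with both plasmids, 7.89 and 7.77 with FOXA2, 8.02 and 7.69 with HIF-1a, and 7.82 and 7.99 in control cells. In normoxia it was 8.02 with both plasmids, 8.07 with FOXA2, 7.73 with HIF-1a and 8.03 in control cells. The groups overlapped, 6 of 8 hypoxia arrays lay below their own normoxia array, and the widest gap was between the 2 hypoxia arrays given both plasmids. The difference was -0.10 ± 0.16 (standard error, 95% interval -0.44 to 0.24, adjusted p = 0.669 by limma), and it was 0.05 with the replicate number as a block.

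Keap1, whose product targets NRF2 for degradation, did not pass on its brightest probe, and its probes differed. The brightest probe had 9.71 and 10.03 with both plasmids, 9.98 and 10.17 with FOXA2, 9.61 and 10.29 with HIF-1a, and 9.95 and 10.22 in control cells under hypoxia. Under normoxia it had 9.75 with both plasmids, 9.60 with FOXA2, 9.91 with HIF-1a and 9.48 in control cells. Above their own normoxia array were 6 of 8 hypoxia arrays, and replicate 2 was above replicate 1 in all 4 transfections, by 0.18 to 0.68. The difference was 0.31 ± 0.15 (95% interval -0.02 to 0.64, adjusted p = 0.139 by limma), which did not pass. It passed without the array of hypoxia with HIF-1a replicate 1, at 0.39 ± 0.11 (adjusted p = 0.0242), and was 0.13 with the replicate block (adjusted p = 0.485), in which replicate 2 arrays do not enter the contrast because no normoxia array carries that number.

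The 4 Keap1 probes, which share 1 transcript accession, gave differences of 0.31, 0.49, 0.19 and -0.01. The second of them was the only one of the 17 tested probes of the NRF2 genes to pass when every probe was tested on its own (0.49 ± 0.15, 95% interval 0.16 to 0.82, adjusted p = 0.0342), while 26.5% of all 17436 probes passed, 12.4% higher. Its hypoxia arrays ran between 9.18 and 10.08 and its normoxia arrays between 8.94 and 9.19, so that they overlapped, and 7 of 8 were above their own normoxia array. The call on Keap1 thus depends on which probe is read.

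**Figure D2:**
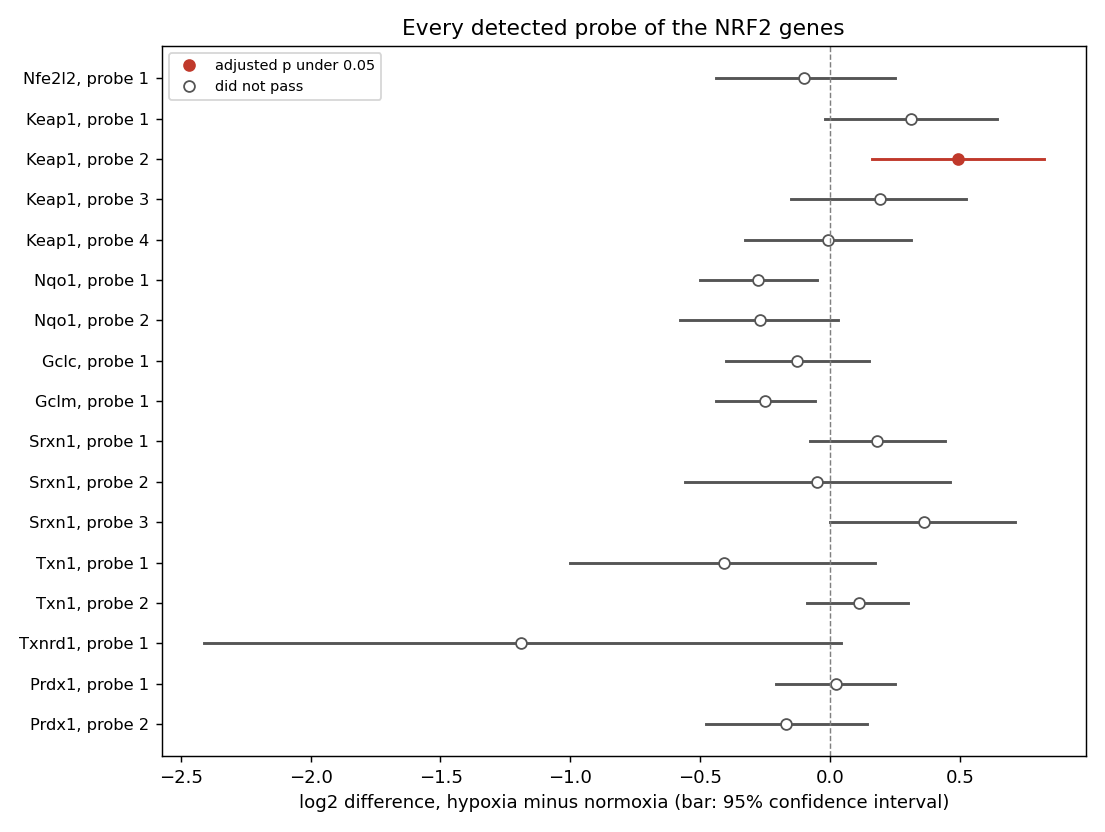
Log2 difference, hypoxia minus normoxia (horizontal axis, bars are 95% confidence intervals), for each of the 17 tested probes of the NRF2 genes, filled where the adjusted p over all probes is under 0.05. Keap1 probe 2 at 0.49 is the only filled point, and the other Keap1 probes run between -0.01 and 0.31.

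Nqo1 encodes a quinone reductase that is widely used as a readout of NRF2. In hypoxia it had 7.65 and 8.0 with both plasmids, 7.65 and 7.49 with FOXA2, 7.91 and 7.71 with HIF-1a, and 7.89 and 7.73 in control cells. In normoxia it had 8.04 with both plasmids, 7.91 with FOXA2, 7.98 with HIF-1a and 8.19 in control cells. All 8 hypoxia arrays lay below their own normoxia array, by 0.04 to 0.46, although the groups overlapped. The difference was -0.28 ± 0.10 (95% interval -0.50 to -0.06), a fold of 0.825, and it narrowly missed the threshold (adjusted p = 0.0567 by limma). Without the array of hypoxia with HIF-1a replicate 1 it was -0.30 ± 0.10 and passed (adjusted p = 0.0365). A second, dim Nqo1 probe, detected on 6 arrays, gave -0.27 (adjusted p over probes = 0.172).

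Gclm and Gclc encode the modifier and the catalytic subunit of glutamate-cysteine ligase, the first enzyme of glutathione synthesis. Gclm had 10.63 and 10.60 in hypoxia with both plasmids, 10.61 and 10.54 with FOXA2, 10.55 and 10.43 with HIF-1a, and 10.64 and 10.67 in control cells. Its normoxia values were 10.82 with both plasmids, 10.67 with FOXA2, 10.86 with HIF-1a and 10.99 in control cells. The hypoxia arrays were close together (SD 0.08, n = 8) and none lay above a normoxia array, though the highest hypoxia array (control replicate 2) and the lowest normoxia array (FOXA2) both round to 10.67. Gclm fell, by a log2 difference of -0.25 ± 0.08 (95% interval -0.44 to -0.06, adjusted p = 0.0451 by limma), which is a fold of 0.841. The call was close to the threshold: it was lost with the replicate block (-0.23, adjusted p = 0.0823) and with a slide block (-0.23, adjusted p = 0.0849), at nearly the same size, and those fits called 30.1% and 28.3% of all genes.

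Gclc, the catalytic partner, did not pass. Its hypoxia arrays ran between 6.69 and 7.19 with a median of 6.85, and its normoxia arrays between 6.87 and 7.16 with a median of 7.03. The groups overlapped, with 6 of 8 hypoxia arrays below their own normoxia array. The difference was -0.13 ± 0.12 (95% interval -0.40 to 0.14, adjusted p = 0.464 by limma). Replicate 2 was below replicate 1 in 3 of the 4 transfections, and the difference was -0.01 with the replicate block.

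Txnrd1 encodes the cytosolic thioredoxin reductase, which uses NADPH to keep thioredoxin reduced, and it had the largest estimate of the 9 genes. In hypoxia it had 8.23 and 8.57 with both plasmids, 9.01 and 8.72 with FOXA2, 5.04 and 8.75 with HIF-1a, and 8.80 and 8.86 in control cells. In normoxia it had 9.32 with both plasmids, 9.56 with FOXA2, 9.60 with HIF-1a and 9.27 in control cells. Every hypoxia array was below every normoxia array, and 1 hypoxia array, HIF-1a replicate 1, was over 3 log2 units below the next. On that array the deposited intensity was 49.6 with a detection p-value of 0.02564, which is not detected, against 326.8 to 582.7 on the other hypoxia arrays.

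Over all 12 arrays the difference of Txnrd1 was -1.19 ± 0.56 (95% interval -2.42 to 0.04, adjusted p = 0.132 by limma) and did not pass. Without HIF-1a hypoxia replicate 1 the estimate was smaller and its error much smaller, at -0.72 ± 0.12 (95% interval -0.97 to -0.46, adjusted p = 0.00151), a fold of 0.609. In that fit 4 of the 9 genes passed, Gclm, Nqo1 and Txnrd1 lower and Keap1 higher, while 33.9% of all genes passed, 18.6% lower and 15.4% higher. With the replicate block Txnrd1 was -1.66 ± 0.57 (adjusted p = 0.0464 by limma) and passed. That contrast rests on replicate 1 arrays, since no normoxia array is replicate 2. Among them is the low array, whose difference from its own normoxia array was -4.56, so this pass leans on it. With a slide block Txnrd1 was -1.57 (adjusted p = 0.0642 by limma) and did not pass. Txnrd1 was read by 1 probe, so no second probe bears on the low array.

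**Figure D3:**
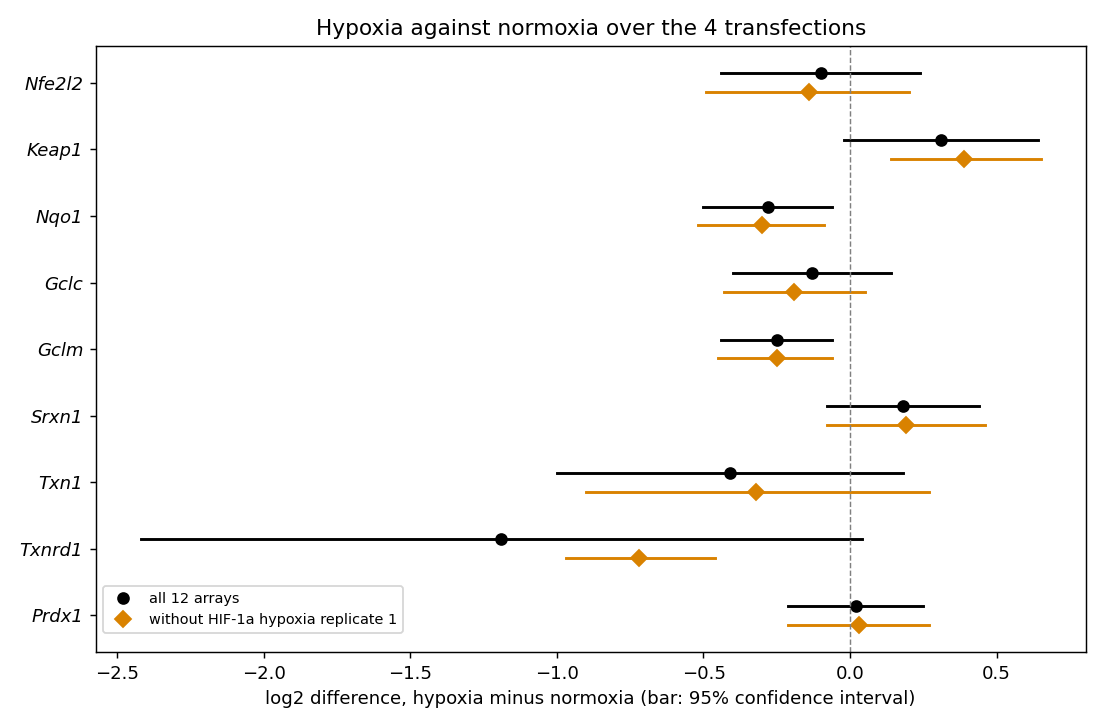
Log2 difference, hypoxia minus normoxia over the 4 transfections (horizontal axis, bars are 95% confidence intervals), for the 9 NRF2 genes from all 12 arrays (circles) and without HIF-1a hypoxia replicate 1 (diamonds). The interval of Txnrd1 spans -0.97 to -0.46 without that array, against -2.42 to 0.04 with all arrays, and that of Keap1 lies wholly above 0 without the array and not with it.

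Txn1 encodes thioredoxin, the substrate of thioredoxin reductase. In hypoxia it had 11.25 and 10 with both plasmids, 11.98 and 11.79 with FOXA2, 10.82 and 11.61 with HIF-1a, and 11.59 and 11.74 in control cells. In normoxia it had 11.83 with both plasmids, 11.72 with FOXA2, 11.87 with HIF-1a and 11.60 in control cells. The 4 hypoxia arrays that had received the HIF-1a plasmid all lay below their own normoxia array, by 0.27 to 1.83, while the 4 that had not lay within -0.02 to 0.25 of theirs. Over all transfections the difference was -0.41 ± 0.27 (95% interval -1.0 to 0.18, adjusted p = 0.268 by limma). The lowest value, on FOXA2 with HIF-1a replicate 2, was on an array with 7 genes over 2 log2 units below every other array. Without that array the difference over all transfections was -0.23, without HIF-1a hypoxia replicate 1 it was -0.32, and without the normoxia array given both plasmids it was -0.15. A second Txn1 probe, detected on 9 arrays, gave 0.11 (adjusted p over probes = 0.402).

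Srxn1 encodes sulfiredoxin, which repairs overoxidised peroxiredoxins, and Prdx1 encodes peroxiredoxin 1, which reduces peroxides with electrons from thioredoxin. Srxn1 had 10.36 and 9.81 in hypoxia with both plasmids, 10 and 10.18 with FOXA2, 10.13 and 10.30 with HIF-1a, and 9.95 and 10.25 in control cells. Its normoxia values were 9.93 with both plasmids, 9.95 with FOXA2, 9.99 with HIF-1a and 9.91 in control cells. Of the hypoxia arrays 7 of 8 were above their own normoxia array, and the groups overlapped, with the hypoxia arrays at 9.81 and 9.95 below the highest normoxia array. The difference was 0.18 ± 0.12 (95% interval -0.08 to 0.44, adjusted p = 0.267 by limma), and the other Srxn1 probes gave -0.05 and 0.36 without passing.

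Prdx1 had the estimate nearest 0 of the 9 genes. Its 8 hypoxia arrays ran between 13.32 and 13.81 with a median of 13.50, and its 4 normoxia arrays between 13.45 and 13.50 with a median of 13.48. Of its hypoxia arrays 3 were below and 5 above their own normoxia array. The difference was 0.02 ± 0.10 (95% interval -0.21 to 0.25, adjusted p = 0.896 by limma). A second, dimmer probe gave -0.17 (adjusted p over probes = 0.411).

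Within single transfections, each with 2 hypoxia arrays against 1 normoxia array, 0 of the 9 genes passed limma's test. The single normoxia array of each transfection takes its error from the spread of the hypoxia pairs. The call rates over all genes were 0.614% with both plasmids, 0.687% with FOXA2, 0.76% with HIF-1a and 0.656% in control cells. At an unadjusted p under 0.05 there was 1 such gene with both plasmids (Txn1) and 0 in each of the other transfections. Txn1 differed by -1.20 with both plasmids, 0.16 with FOXA2, -0.66 with HIF-1a and 0.06 in control cells, each ± 0.51. The first of these had an adjusted p of 0.363 in the limma fit. The size in both groups given the HIF-1a plasmid turned on single arrays: it was -0.58 with replicate 1 and -1.83 with replicate 2 of hypoxia with both plasmids, and -1.06 with replicate 1 and -0.27 with replicate 2 of hypoxia with HIF-1a. Txnrd1 differed by -0.92 with both plasmids, -0.69 with FOXA2, -2.71 with HIF-1a and -0.44 in control cells, each ± 1.17. The HIF-1a value holds the single low array, and without that array it was -0.85. Keap1 differed by 0.12 with both plasmids, 0.48 with FOXA2, 0.04 with HIF-1a and 0.60 in control cells, each ± 0.32. Gclm and Nqo1 were lower in all 4 transfections, by 0.09 to 0.37 and by 0.17 to 0.38.

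The study's title asks about the joint action of HIF and FoxA2. The comparison that bears on this for the NRF2 genes is between transfections in hypoxia, 2 arrays against 2. The hypoxia arrays given both plasmids were all on slide 2. The other transfections had replicate 1 on slide 1 and replicate 2 on slide 2. Of the 9 genes 0 passed limma's test for FOXA2 with HIF-1a, FOXA2 or HIF-1a against control cells, or for the interaction of the 2 plasmids. Over all 9609 genes the call rate was also 0% in each, with 432, 21, 82 and 243 genes at an unadjusted p under 0.05. Among the 9 genes 1 was at that level, Txn1 with both plasmids, at -1.04 ± 0.41 (95% interval -1.99 to -0.08, adjusted p = 0.966). It ran between -1.66 and -0.41 over the settings tried, and the 2 arrays given both plasmids lay apart, at 11.25 on replicate 1 and 10 on replicate 2. Txn1 was 0.22 ± 0.41 with FOXA2 and -0.45 ± 0.41 with HIF-1a, and the interaction was -0.81 ± 0.58, between -1.43 and -0.18 over those settings. Txnrd1 was -0.43 ± 0.96 with both plasmids, 0.03 ± 0.96 with FOXA2 and -1.93 ± 0.96 with HIF-1a. The value with HIF-1a rests on HIF-1a hypoxia replicate 1: without that array it was -0.08.

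For the other 7 genes the differences from control cells ran between -0.24 and 0.12 over the 3 transfections, with standard errors of 0.17 to 0.30. Changes of that order were not detectable with 2 arrays a side. The hypoxia response of each plasmid group minus that of control cells was called for 0 of the 9 genes and for 0% of all genes by limma. At an unadjusted p under 0.05 these were 0 of the 9, and 71, 11 and 31 of all genes with both plasmids, FOXA2 and HIF-1a. The response of Txn1 with both plasmids minus that in control cells was -1.26 ± 0.72, between -1.89 and -0.64 over the settings tried, and that of Keap1 with HIF-1a was -0.56 ± 0.46, between -0.90 and 0.04.

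**Figure D4:**
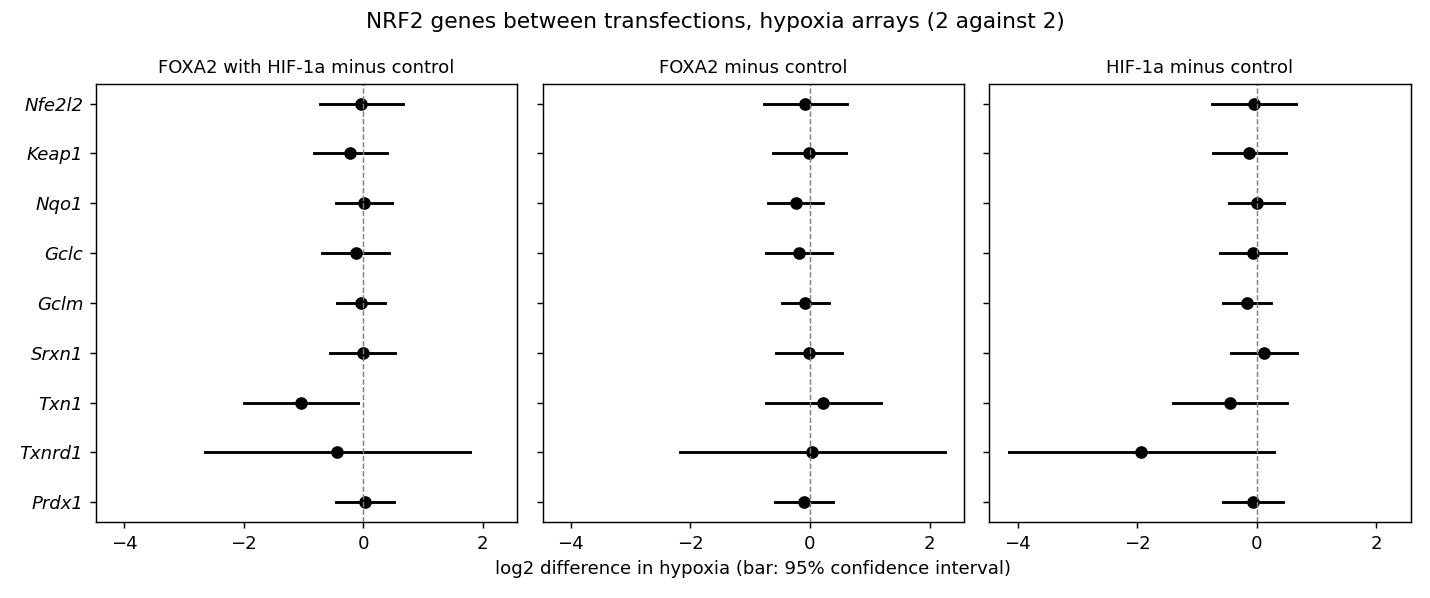
Log2 difference in hypoxia from control cells (horizontal axis, bars are 95% confidence intervals) of the 9 NRF2 genes for FOXA2 with HIF-1a, FOXA2 and HIF-1a, 2 arrays against 2 in each panel. Txn1 with both plasmids, at -1.04, is the only interval that leaves out 0 before adjustment, and the intervals of Txnrd1 are the widest.

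In normoxia each transfection had 1 array, so no test was made. Across the 4 normoxia arrays Prdx1 spanned 13.45 to 13.50, Srxn1 9.91 to 9.99, Txn1 11.60 to 11.87 and Nqo1 7.91 to 8.19. Gclm spanned 10.67 to 10.99, Txnrd1 9.27 to 9.60, Keap1 9.48 to 9.91, Nfe2l2 7.73 to 8.07 and Gclc 6.87 to 7.16. Among these spans that of Keap1 is the widest and that of Prdx1 the narrowest.

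Some genes around NRF2 changed in hypoxia, over all lists together at a rate near that of all genes. Of 20 listed partners and regulators 18 were measured: 4 rose, 2 fell, and the other 12 missed the threshold, against 30.4% called over all genes. The median log2 difference was 0.14. The small MAF genes Mafg and Maff, whose products pair with NRF2 or with its competitor BACH1, rose by 0.58 ± 0.11 (adjusted p = 0.00258) and 0.76 ± 0.18 (adjusted p = 0.00758) in the limma fit. Mafg ran between 9.90 and 10.36 in hypoxia and between 9.36 and 9.68 in normoxia, and Maff between 8.36 and 9.20 in hypoxia and between 7.80 and 8.10 in normoxia, without overlap in either. A second Mafg probe gave 0.22 and did not pass. Gsk3b, a kinase that marks NRF2 for degradation, rose by 0.68 ± 0.14 (adjusted p = 0.00368), but its second probe gave 0.06. Btrc, the ubiquitin ligase adaptor that reads that mark, rose by 0.43, a call that neither the replicate block (adjusted p = 0.109) nor the slide block (adjusted p = 0.127) kept. Pgam5, a mitochondrial phosphatase bound by KEAP1, fell by 0.72 ± 0.14 (adjusted p = 0.00326), and Fbxw7, a ubiquitin ligase subunit, fell by 0.50 (adjusted p = 0.0224), a call lost with the slide block (adjusted p = 0.0585).

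Of 39 other NRF2 targets 29 were measured: 2 rose, 1 fell, and the other 26 missed the threshold. The share called was under the 30.4% of all genes. The median was 0.15. Hmox1, the haem oxygenase gene, ran between 11.09 and 11.77 in hypoxia and between 9.25 and 9.89 in normoxia. It rose by 1.72 ± 0.11 (adjusted p = 1.35e-06 by limma), a fold of 3.28, and the values within transfections were 1.78 with both plasmids, 1.84 with FOXA2, 1.66 with HIF-1a and 1.58 in control cells. Hmox1 is also a textbook target of HIF and of BACH1. Idh1, the cytosolic NADPH-making isocitrate dehydrogenase, rose by 1.20 ± 0.31 (adjusted p = 0.0132), and the estimate was 0.64 with the replicate block (adjusted p = 0.000531). Cbr3, a carbonyl reductase, fell by 0.58 ± 0.12 (adjusted p = 0.00463), while its second probe gave -0.38 and did not pass (adjusted p over probes = 0.0884). Ephx1, an epoxide hydrolase, had 0.65 ± 0.25 and did not pass (adjusted p = 0.0755). With the replicate block 2 rose and 4 fell, a share under the 30.1% of all genes called there, and the median was -0.07.

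Of 22 other glutathione genes 18 were measured: 1 rose, 4 fell, and the other 13 missed the threshold. The share called was close to the 30.4% of all genes. The median was 0.01. A pair of enzymes that break glutathione or its gamma-glutamyl products fell: Chac1 by 0.73 ± 0.12 (adjusted p = 0.00156) and Ggct by 0.82 ± 0.15 (adjusted p = 0.0025) in the limma fit. Chac1 ran between 11.11 and 11.81 in hypoxia and between 12.20 and 12.38 in normoxia. All 3 other Ggct probes were lower as well, by 0.81 to 1.08. The mitochondrial glutaredoxins Glrx2 and Glrx5 fell by 0.40 and 0.32, and Glo1, a glyoxalase that uses glutathione, rose by 0.41 (adjusted p = 0.0127).

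Of 22 other thioredoxin and peroxiredoxin genes 16 were measured: 2 rose, 3 fell, and the other 11 missed the threshold, a share called close to the 30.4% of all genes. The median was 0.04. With the replicate block 0 rose and 2 fell, a share under the 30.1% of all genes called there. Txnrd3, a paralogue of Txnrd1, fell by 0.59 ± 0.08 (adjusted p = 0.000543 by limma), with hypoxia arrays between 7.41 and 7.69 and normoxia arrays between 8.15 and 8.36. Its value on HIF-1a hypoxia replicate 1 was 7.68, within the range of the other hypoxia arrays, unlike that of Txnrd1. Txnip, the thioredoxin-binding arrestin, fell by 0.49 (adjusted p = 0.0447), and this call was lost without HIF-1a hypoxia replicate 1 (-0.47, adjusted p = 0.0645). The calls of Msrb1 and Msrb2, methionine sulfoxide reductases, at 0.51 and -0.47, and of Sesn2, a stress-induced sestrin, at 0.80, were lost with the replicate block (adjusted p of 0.0516, 0.0912 and 0.0571). Sesn2 was detected on 7 of 8 hypoxia arrays and 1 of 4 normoxia arrays.

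Of 13 superoxide and peroxide enzymes 9 were measured: 1 rose, 1 fell, and the other 7 missed the threshold, a share called under the 30.4% of all genes. The median was 0.16. Nox4, an NADPH oxidase that releases hydrogen peroxide, fell by 0.89 ± 0.10 (adjusted p = 8.18e-05 by limma), with hypoxia arrays between 5.36 and 5.77 and normoxia arrays between 6.27 and 6.77. These levels are dim, though detected on all 12 arrays. The size varied with the processing: it was -0.66 in the authors' processed table and ran between -0.97 and -0.55 over the settings tried. Cat, the catalase gene, rose by 0.62 ± 0.16 (adjusted p = 0.0148), and its second probe gave 0.34 without passing. Cyba, an oxidase subunit, and Prnp, the prion protein gene, had 0.22 and 0.24 and did not pass.

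Of 16 other genes listed with NADPH supply, not all of which encode enzymes that make NADPH, 14 were measured. Of these 3 rose, 4 fell, and the other 7 missed the threshold, a share called above the 30.4% of all genes. The median was -0.04. Me2, a mitochondrial malic enzyme, ran between 9.17 and 9.97 in hypoxia and between 7.85 and 8.04 in normoxia, and rose by 1.77 ± 0.13 (adjusted p = 3.24e-06 by limma), a fold of 3.41. Rpe, a pentose phosphate epimerase, rose by 1.15 ± 0.16 (adjusted p = 0.00044), and Aldh1l2, the mitochondrial formyltetrahydrofolate dehydrogenase, by 1.07 ± 0.18 (adjusted p = 0.00139). Mthfd1 and Shmt1, both of cytosolic one-carbon metabolism, fell by 0.46 and 0.76 (a second Mthfd1 probe gave -0.32 and did not pass), Rpia of the pentose phosphate pathway by 0.38, and H6pd, the hexose-6-phosphate dehydrogenase of the endoplasmic reticulum, by 0.28. Over the 6 lists together 13 of 104 measured genes rose and 15 fell, shares close to the background of 14.4% and 15.9%. Of these 28 calls 24 were still made with the replicate block. The lists differed: the share called was lowest in the other NRF2 targets and highest in the NADPH supply list. None of the 104 genes was called between transfections in hypoxia (limma).

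**Figure D5:**
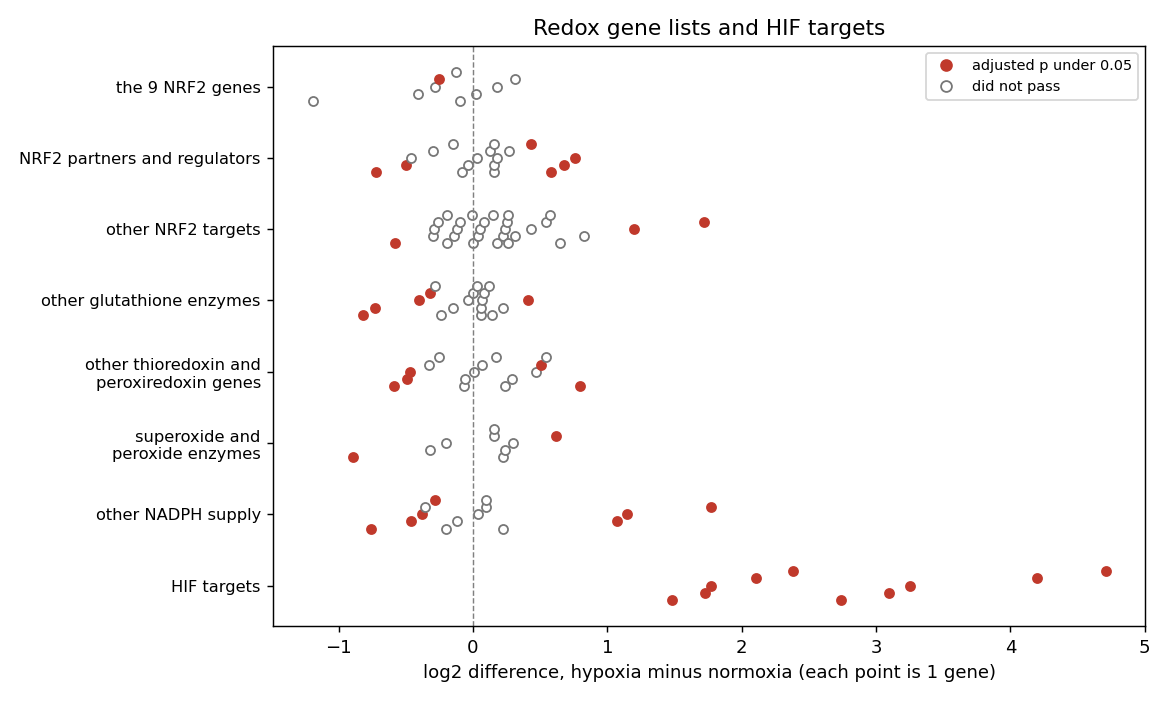
Log2 difference, hypoxia minus normoxia (horizontal axis), of each measured gene in the NRF2 genes, 6 lists of related genes and the HIF targets, 1 point a gene, filled where the adjusted p is under 0.05. The NRF2 genes run between -1.19 (Txnrd1) and 0.31 (Keap1) with 1 filled point, Gclm at -0.25. All 10 HIF targets, listed as a check, lie to the right.

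Over the 12 arrays, the genes most like Nqo1 were Mrps22 (Pearson r = 0.926), Efl1 (0.922) and Mrps11 (0.920). Those most like Srxn1 were Pcdh19 (0.918), Arpc1a (0.911) and Cyp4f16 (0.888). Those most like Txnrd1 were Ifrd1 (0.990), Dis3 (0.988) and Prim1 (0.988), and all 3 lay between 4.54 and 4.74 on HIF-1a hypoxia replicate 1, where Txnrd1 was at 5.04. Without that array their r with Txnrd1 was 0.907, 0.893 and 0.891. These values describe 12 arrays that share oxygen level and replicate structure.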

How the data were processed

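RNA of 12 samples was measured on Illumina Mouse-6 arrays on 2 slides. Slide 1 held the normoxia and replicate 1 hypoxia arrays of control, FOXA2 and HIF-1a cells. Slide 2 held their replicate 2 hypoxia arrays and all arrays given both plasmids. Slide is thus partly confounded with oxygen and with the comparison of both plasmids against control cells. Per the labels' protocols, biotin-labelled cRNA was made from 500 ng of total RNA and detected with streptavidin-Cy3. The authors deposited linear probe intensity, not normalized, for 45281 probes, with a detection p-value beside each. A second deposited table holds processed linear intensity of 26415 probes, exactly those whose detection p-value fell under 0.1 on 1 or more arrays. Its columns followed their own array at r of 0.981 to 1.00 with medians of 86.1 to 86.2, and its normalization is not stated, so it served as an alternative. Of the per-sample columns 0 were unused.

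Using R 4.3.3 and limma 3.58.1, intensities were background-corrected by neqc (background from the detection p-values, offset 16), then quantile normalized on the log2 scale. The filter kept 17436 probes that reached a detection p-value under 0.01 on 2 or more arrays, of which 14981 had 1 gene symbol in the platform annotation, 5 several and 2450 none here. A gene was read by its brightest detected probe, which gave 9609 genes. Levels of different probes were not compared, but those of the cell type markers were summed.

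Hypoxia was compared with normoxia by lmFit and eBayes in a fit of transfection plus oxygen, and all other comparisons in a fit with a mean per group, with Benjamini-Hochberg adjustment over all genes and calls at an adjusted p under 0.05. Values after ± are standard errors. The fits were tested on simulated data. Between hypoxia arrays with the same replicate number, deviations from the group mean correlated at 0.286 to 0.782 in all 6 pairs of transfections. Among control, FOXA2 and HIF-1a cells, where replicate number and slide coincide in hypoxia, r was 0.56 to 0.782. Against cells given both plasmids, whose hypoxia arrays share slide 2, r was 0.286 to 0.514. How much of this correlation comes from the slide was not tested. The fit called the replicate block treats arrays of equal replicate number as paired. Every normoxia array is replicate 1.

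The genes and lists were chosen with earlier results of these data known. Named were all NRF2 genes, up to 4 genes with the smallest p of each other list, and the 3 genes most correlated with Nqo1, Srxn1 and Txnrd1. Other called list genes were named after their values were seen. Alternatives were the processed table, normalization, background correction, detection filter, probe rule, slide, replicate block and leaving out each array. Promoter sequences are from RefSeq (GRCm38.p6), which held a window for 8 of the NRF2 genes here.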

Additional observations from a re-analysis of the deposited data

Results flagged for a closer look

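Nfe2l2 was 7.73 on the HIF-1a normoxia array, apart from the other 3 normoxia arrays at 8.02 to 8.07, with a gap of 0.855 of the group's range. Txnrd1 was 5.04 on HIF-1a hypoxia replicate 1, apart from the other 7 hypoxia arrays at 8.23 to 9.01, with a gap of 0.802 of the range. Chance alone sets apart about 1 group in 20 in this way.

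The hypoxia responses of Txn1 ran in opposite directions on every array of 2 pairs of transfections. The response with FOXA2 minus that with HIF-1a was 0.82, and the response with FOXA2 minus that with both plasmids was 1.36. These differences were not tested.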

How the results depend on the processing

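The difference of Gclm kept its direction in all settings, between -0.30 and -0.21, but passed in 10 of 24 settings. It was lost without any 1 of the 4 normoxia arrays, either control hypoxia array, FOXA2 hypoxia replicate 2 or HIF-1a hypoxia replicate 2. NRF2 genes called in hypoxia, 1 in the reported fit, numbered 2 without background correction, 3 with the mean of a gene's probes, 1 with the replicate block, and 0 with the slide block, with replicate 1 arrays only, with slide 1 arrays only or with a mean per group. Leaving out 1 array gave 0 to 4. It was 4 without HIF-1a hypoxia replicate 1, and 2 (Gclm and Nqo1) without FOXA2 with HIF-1a hypoxia replicate 2. The cause was not tested. Genes called in all, 2918, numbered 4628 when every probe was tested, 1628 with a mean per group and 1797 to 3300 without 1 array, with 1864, 1797 and 1917 without the FOXA2, HIF-1a and FOXA2 with HIF-1a normoxia arrays.

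Prdx1 was -0.07 with the mean of its probes, -0.01 with the slide block, -0.08 with the replicate block, -0.08 with replicate 1 arrays only, -0.04 with slide 1 arrays only and -0.03 to 0.07 without 1 array. Nfe2l2 was 0.05 with the replicate block and 0.05 with replicate 1 arrays only, and Gclc was 0.05 with slide 1 arrays only. None of these values passed.

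Within transfections, summed over the 4, 261 genes were called, 416 when every probe was tested, 441 with the slide block, 1035 with the replicate block and 117 to 258 without 1 array, of which the NRF2 genes were 0 to 1. Between transfections in hypoxia 3 genes were called with the replicate block and 0 to 88 without 1 array, with 0 to 2 for the NRF2 genes. For differences of response these ranges were 0 to 24 and 0 to 1. Each of these NRF2 calls is Txnrd1 without HIF-1a hypoxia replicate 2, where the lone remaining array holds the value of 5.04: -4.56 in HIF-1a cells (adjusted p = 0.00192), -3.79 against control cells (adjusted p = 0.00236), 3.32 for the interaction (adjusted p = 0.0266) and -4.12 for the response (adjusted p = 0.0198). The replicate block changed no other call of the NRF2 genes than those of Gclm and Txnrd1. Leaving out a normoxia array gave no response within its transfection. The number of arrays, with 1 normoxia array a transfection, limits the precision of all values.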
